A study of Mus musculus with 6 samples.

Results

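The 10 genes described here encode the central components of the Hippo pathway in mouse cells: the kinases Stk3, Lats1 and Lats2, their upstream activator Nf2, the coactivators Yap1 and Wwtr1, and the transcription factors Tead1, Tead2, Tead3 and Tead4. They were taken from the deposited expression table by gene symbol, which gave 10 of its 22375 rows, 1 row per gene, and all 10 were among the 11593 rows tested. RNA was sequenced from C2C12 cells, an established mouse myoblast line that grows as single cells and fuses into myotubes when serum is withdrawn. The CON group was not stretched and the 4H group was stretched cyclically at 15% elongation for 4 h, each with 3 libraries. The question of the comparison was how mechanical overload changes gene expression in muscle cells. Both groups were the same unmodified line grown in serum-containing medium and plated near confluence on elastic plates coated with poly-lysine, a surface that binds cells by charge. Values are FPKM (fragments per kilobase of transcript, scaled to the mapped fragments of the library), a level that is already divided by transcript length, so genes can be compared roughly with each other. Comparison between groups also depends on the scaling of the libraries, whose summed FPKM differed by group. The labels call the libraries of a group replicate biosamples, and nothing says that they came from separate cultures, so the tests measure the spread between these libraries, which may be technical.

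In the Hippo pathway the kinase MST2 (the product of Stk3) and its paralog MST1 (Stk4), bound to the adaptor SAV1, activate LATS1 and LATS2, which work with MOB1 and are recruited to the membrane by merlin (Nf2). LATS kinases phosphorylate YAP (Yap1) and TAZ (Wwtr1), which are then held in the cytoplasm by YWHA adaptor proteins or degraded. Unphosphorylated YAP and TAZ enter the nucleus and switch on genes through the TEAD factors, which bind DNA and have little activity alone. In muscle the TEAD site is known as the MCAT element of contractile genes, YAP favours growth of myoblasts, and both coactivators respond to stretch and to a stiff surface. Most of this control acts on protein, and the values here are RNA levels only.

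All 10 genes were expressed in every library, between 5.18 FPKM for Tead3 and 36.9 FPKM for Wwtr1. After 4 h of stretch Wwtr1, Tead1, Lats2 and Stk3 rose, by 1.17 to 1.502 times, Tead3 and Nf2 fell, and Yap1, Tead2, Tead4 and Lats1 did not pass the test. The 6 called genes are 60.0% of the 10, where 46.7% of all genes tested were called (limma, adjusted p of at most 0.05 over all genes tested). The 4 higher genes compare with 22.6% of all genes called higher, and the 2 lower genes with 24.1% called lower. None of the 10 changed by a log2 fold change of at least 1, a threshold of the study's methods. Of all genes tested, 3.88% passed both that and an adjusted p of at most 0.05 (2.61% higher and 1.28% lower). An unadjusted p under 0.05 in limma was found for 7 of the 10, as for 53.6% of all genes tested. The 3 CON and 3 4H libraries did not overlap for 7 of the 10 genes, 5 higher and 2 lower in the 4H group, where this held for 56.7% of all genes tested, 27.5% higher and 29.2% lower. The median log2 fold change was 0.11 over the 10 genes and -0.01 over all genes tested. In bulk RNA, more cells expressing a gene and more RNA per cell cannot be told apart.

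**Figure D1:**
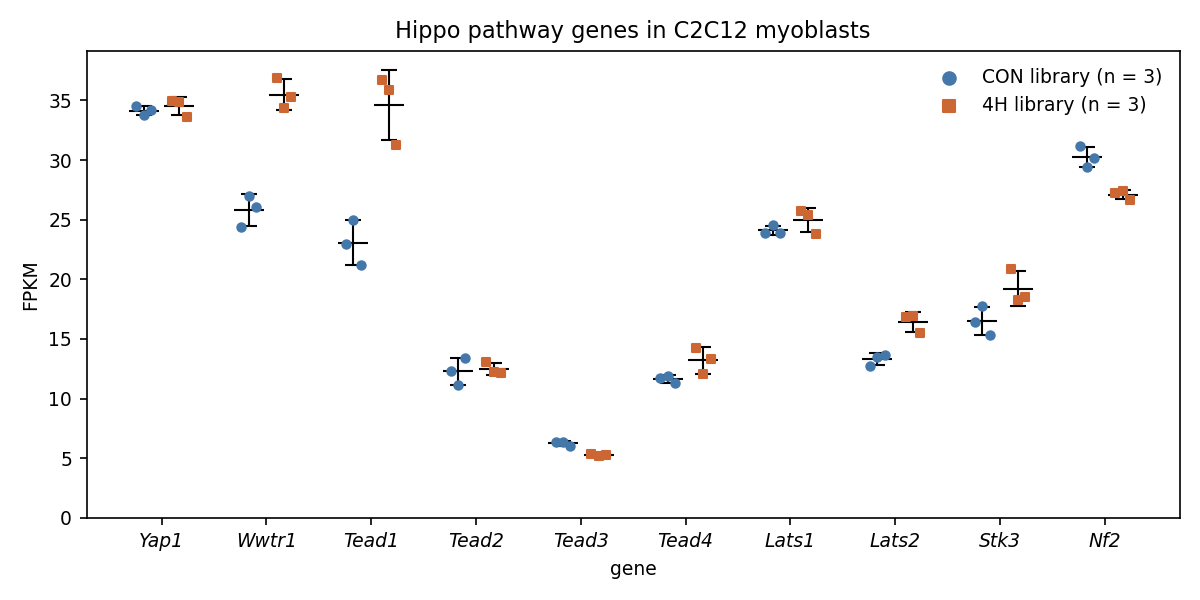
Level of each of the 10 genes in FPKM (vertical axis, from 0) by gene (horizontal axis), with 1 point per library, 3 CON and 3 4H libraries per gene, and bars for the mean ± SD. The points of the groups lie apart for Wwtr1, Tead1, Tead3, Tead4, Lats2, Stk3 and Nf2, and overlap for Yap1, Tead2 and Lats1.

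The summed FPKM was 395790 to 397260 in the CON libraries and 385146 to 387516 in the 4H libraries. Their FPKM values correlated at 0.992 to 0.993 within the groups and at 0.967 to 0.970 between them (Pearson, log2 scale, across genes), and no 2 libraries were identical. Their relative depths, estimated on rows below 0.1 FPKM, lay within 1.55% of each other. That estimate rests on 12 to 23 of 562 to 796 such rows for each pair of libraries. Rows with a large ratio between the libraries were left out beforehand, so a large difference in depth could not have been found. Of 7 myoblast markers 6 were expressed, with summed levels of 175.2 to 179.6 FPKM in the CON libraries and 261.8 to 274.6 FPKM in the 4H libraries, and Pax7 stayed under the filter. They did not move as one, since Myod1 rose from 5.13 to 18.2 FPKM and Myf5 fell from 15.8 to 9.82 FPKM (limma adjusted p = 1.56e-06 and 0.000347). Of 10 myotube markers 2 passed the filter, with sums of 1.34 to 1.75 FPKM in CON and 2.30 to 3.43 FPKM in 4H, and Mymx, Myh8 and Actn2 were listed at 0. The 2 past the filter were Mymk, higher in 4H (means of 0.525 and 1.01 FPKM, limma adjusted p = 0.0194), and Mef2c, not called (adjusted p = 0.210). Under the filter and not tested, Ttn (means of 0.198 and 0.522 FPKM) and Tnnt3 (0.0779 and 0.401 FPKM) were higher in 4H with no overlap. Myog, also not tested, was lower, at 0.136 to 0.281 FPKM in CON and at 0 to 0.0794 FPKM in 4H. Myh3 and Ckm overlapped. Summed fibroblast markers were 10.3 to 11.4 FPKM in CON and 12.6 to 14.1 FPKM in 4H, with 3 of 6 past the filter and Tcf21 at 0. Pdgfra was called higher (means of 3.15 and 5.08 FPKM, limma adjusted p = 0.000753), and Col1a1 (6.89 and 6.65 FPKM) and Dcn (0.876 and 1.40 FPKM) were not called. Leukocyte markers summed to 6.73 to 8.51 and 15.0 to 17.6 FPKM. Cd68 was the only one of these 5 past the filter, and Ptprc and Adgre1 were at 0. Epithelial markers summed to 2.83 to 4.10 and 5.20 to 6.13 FPKM. Krt14, the only one of these 5 past the filter, was called higher (means of 3.32 and 5.07 FPKM, limma adjusted p = 0.0116), and Epcam was at 0. None of the 4 endothelial markers passed the filter, and their sums were 0.057 to 0.112 FPKM in CON and 0.146 to 0.261 FPKM in 4H. The part of these marker changes in the results was not tested.

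The DNA element that TEAD factors recognise was looked for in the promoters of the genes themselves, because YAP and TAZ act on DNA through it. RefSeq promoters on the build GRCm38.p6 were matched for 7 of the 10 genes, giving 12 windows of 250 bases before an annotated start. Tead1, Tead4 and Stk3 had no matched promoter and were not searched. The element, CATTCC or GGAATG depending on the strand, was present in 5 of the 12 windows, from Yap1, Wwtr1 and Tead3, and in 12.6% of all 32851 mouse promoters of the same length. Windows of 1 gene can overlap and hold the same match. An AP-1 motif (TGANTCA, either strand) and a CArG box, the element of serum response factor, were in none of the 12 windows and in 6.75% and 1.47% of all promoters. The windows of the 3 genes with the element are shown, 1 window each, 5′ to 3′ on the strand of the gene, with the element in capitals.
Yap1, chr9:8004597-8004846, minus strand, element 141 bases before the start: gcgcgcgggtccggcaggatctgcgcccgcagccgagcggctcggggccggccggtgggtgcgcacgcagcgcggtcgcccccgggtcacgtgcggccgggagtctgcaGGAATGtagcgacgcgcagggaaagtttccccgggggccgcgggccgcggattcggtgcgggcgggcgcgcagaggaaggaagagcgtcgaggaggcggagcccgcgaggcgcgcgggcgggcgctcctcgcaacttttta
Wwtr1, chr3:57575911-57576160, minus strand, element 136 bases before the start: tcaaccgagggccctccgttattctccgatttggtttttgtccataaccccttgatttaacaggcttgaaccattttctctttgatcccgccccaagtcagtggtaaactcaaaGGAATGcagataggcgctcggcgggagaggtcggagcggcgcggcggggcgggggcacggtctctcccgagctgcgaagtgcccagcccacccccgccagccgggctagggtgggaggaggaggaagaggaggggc
Tead3, chr17:28350806-28351055, minus strand, element 182 bases before the start: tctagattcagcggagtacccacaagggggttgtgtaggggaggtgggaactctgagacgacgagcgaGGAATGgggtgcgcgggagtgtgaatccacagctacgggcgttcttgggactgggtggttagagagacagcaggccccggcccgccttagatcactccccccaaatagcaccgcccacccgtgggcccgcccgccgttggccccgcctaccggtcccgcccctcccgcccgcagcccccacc
The RNA levels of the genes with these windows moved in different directions, since Yap1 did not pass the test, Wwtr1 rose and Tead3 fell. A match describes the letters only, and no binding was measured.

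Yap1 and Wwtr1 encode the coactivators YAP and TAZ, which share TEAD partners and many targets. Yap1 (ENSMUSG00000053110, chr9:7931999-8004596, minus strand) stood at 34.5, 33.8 and 34.2 FPKM in the 3 CON libraries and at 34.98, 34.9 and 33.6 FPKM after stretch. The 4H values surrounded the CON values, and the means were 34.2 ± 0.361 and 34.5 ± 0.748 FPKM (SD, n = 3 each). The log2 fold change was 0.01 (95% confidence interval -0.07 to 0.10, limma adjusted p = 0.768), so a change in Yap1 RNA beyond that interval was not seen. Wwtr1 (ENSMUSG00000027803, chr3:57455649-57575910, minus strand) stood at 24.4, 26.98 and 26.1 FPKM in CON and at 36.9, 34.3 and 35.3 FPKM in 4H. Every 4H library was above every CON library, and the means were 25.8 ± 1.32 and 35.5 ± 1.29 FPKM (SD, n = 3 each). Wwtr1 rose 1.38-fold, a log2 fold change of 0.45 ± 0.05 (SE, limma adjusted p = 0.000157), and 10.6% of all genes tested had a larger log2 fold change.

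In the CON group Yap1 RNA was above Wwtr1 RNA in all 3 libraries, whereas in the 4H group the ranges of the genes overlapped. The share of Wwtr1 in the sum of both was 41.4%, 44.4% and 43.3% in the CON libraries and 51.3%, 49.6% and 51.2% in the 4H libraries. It was 7.68 percentage points higher in the 4H group, with no overlap (two-sided exact permutation p = 0.1, the smallest that 3 libraries against 3 allow). The sum of both genes was 59.96 ± 0.973 FPKM in CON and 69.99 ± 1.63 FPKM in 4H (SD, n = 3 each; exact permutation p = 0.1), 1.17 times higher. A share within a library does not depend on how that library was scaled.

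The 4 TEAD genes encode factors with nearly the same DNA-binding domain, and they differed in direction. Tead1 (ENSMUSG00000055320, chr7:112679318-112906807, plus strand), the most abundant TEAD transcript here and a factor of muscle and heart genes, stood at 22.98, 24.98 and 21.2 FPKM in the CON libraries and at 36.7, 35.9 and 31.3 FPKM after stretch. All 4H values were higher, and the means were 23.1 ± 1.89 and 34.6 ± 2.92 FPKM (SD, n = 3 each). Tead1 had the largest change of the 10 genes, 1.502-fold, with a log2 fold change of 0.58 ± 0.08 (SE, limma adjusted p = 0.000465), and 7.55% of all genes tested had a larger one.

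Tead3 (ENSMUSG00000002249, chr17:28331671-28350817, minus strand), the least abundant of the 10 genes, stood at 6.32, 6.38 and 6.002 FPKM in CON and at 5.36, 5.18 and 5.29 FPKM in 4H. All 4H values were lower, with a log2 fold change of -0.22 ± 0.06 (SE, limma adjusted p = 0.0212) and means of 6.23 ± 0.203 and 5.28 ± 0.0933 FPKM (SD, n = 3 each). The call was lost without CON replicate 1, CON replicate 2 or 4H replicate 2, where the limma adjusted p was 0.0625, 0.0641 and 0.0599.

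Tead4 (ENSMUSG00000030353, chr6:128224288-128300823, minus strand), a TEAD gene that the myogenic factors MYOD1 and MYOG bind in differentiating myoblasts, stood at 11.8, 11.9 and 11.3 FPKM in CON and at 14.3, 12.03 and 13.3 FPKM in 4H. The groups did not overlap, but 4H replicate 2 lay close to the CON libraries, and the log2 fold change of 0.17 (95% confidence interval 0.01 to 0.33) did not pass the test (limma adjusted p = 0.0713). It passed without 4H replicate 2 (adjusted p = 0.0208) and after rescaling to TPM (adjusted p = 0.0432). Tead2 (ENSMUSG00000030796, chr7:45215753-45233644, plus strand) stood at 12.3, 11.1 and 13.4 FPKM in CON and at 13.04, 12.2 and 12.2 FPKM in 4H. The groups overlapped, and the log2 fold change was 0.03 (95% confidence interval -0.14 to 0.19, limma adjusted p = 0.802). An exon of Yap1 overlaps the gene model Gm20416, whose level was not analysed here, on the opposite strand, and an exon of Tead2 overlaps Cd37 on the opposite strand, but Cd37 was at most 0.161 FPKM in any library. Whether counting used strand is not given in the sources used here.

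**Figure D2:**
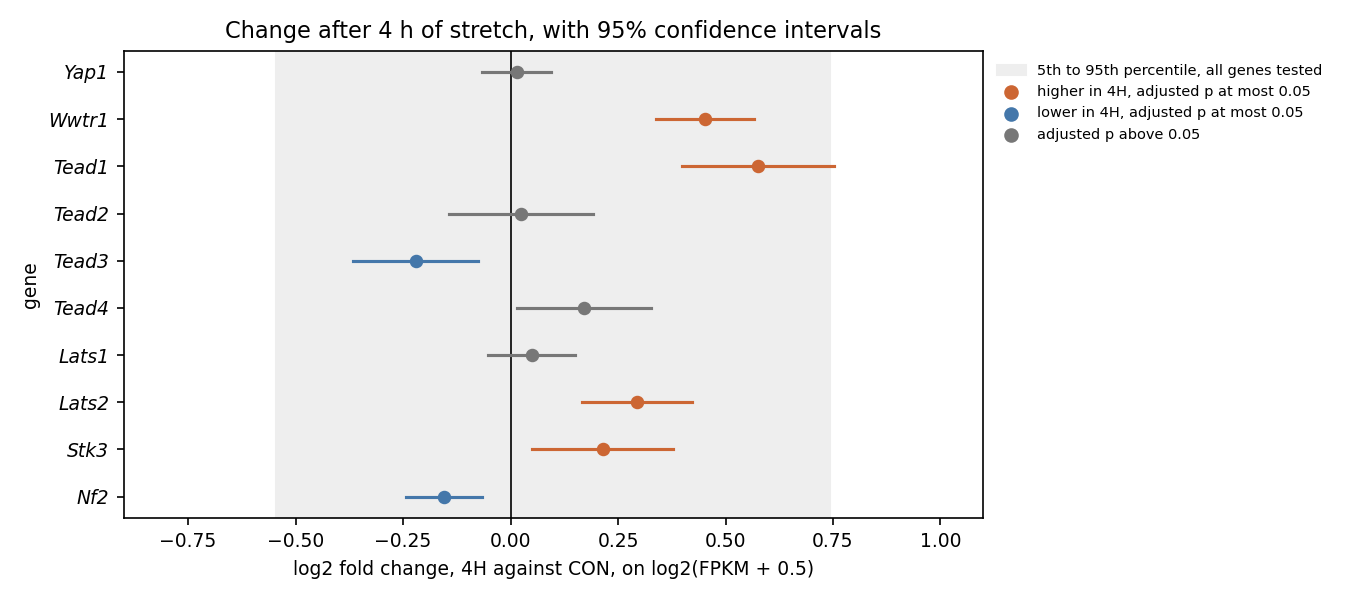
Log2 fold change of each of the 10 genes, 4H against CON, on log2(FPKM + 0.5) (horizontal axis), by gene (vertical axis), with points for the limma estimate and bars for its 95% confidence interval. Tead1, Wwtr1, Lats2 and Stk3 lie right of 0 and Tead3 and Nf2 left of it with an adjusted p of at most 0.05, and Yap1 (0.01), Tead2 (0.03), Lats1 (0.05) and Tead4 (0.17) are the genes not called.

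With Tead1 rising and Tead3 falling, the makeup of the TEAD transcripts differed between the groups. Tead1 took 43.0%, 45.9% and 40.9% of the summed TEAD level in the CON libraries and 52.9%, 54.9% and 50.4% in the 4H libraries, a difference of 9.48 percentage points with no overlap (two-sided exact permutation p = 0.1). The share of Tead2 was 23.1% ± 2.69 in CON and 19.1% ± 0.484 in 4H (SD, n = 3 each; exact permutation p = 0.1), although its level did not pass the test. The share of Tead3 was 11.7% ± 0.138 in CON and 8.06% ± 0.416 in 4H (SD, n = 3 each; exact permutation p = 0.1). The share of Tead4 was 21.9% ± 0.131 in CON and 20.1% ± 1.55 in 4H (SD, n = 3 each; exact permutation p = 0.1), while its level was 11.6 FPKM in CON and 13.2 FPKM in 4H. For each of the 4 shares the groups did not overlap, but the shares add up to the whole, so a higher share of Tead1 lowers the others and they are not separate results. The sum of the 4 TEAD genes was 53.2 ± 1.25 FPKM in CON and 65.6 ± 3.68 FPKM in 4H (SD, n = 3 each; exact permutation p = 0.1), 1.23 times higher. In all, 7 shares and 4 sums were tested in this way, and none can pass a threshold of 0.05 with this number of libraries.

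Lats1 and Lats2 encode the kinases that phosphorylate YAP and TAZ, and Lats2 is itself a known YAP target that acts in feedback. Lats2 (ENSMUSG00000021959, chr14:57689662-57758388, minus strand) stood at 12.7, 13.5 and 13.7 FPKM in the CON libraries and at 16.9, 16.9 and 15.5 FPKM after stretch. All 4H values were higher, and Lats2 rose 1.24-fold, with means of 13.3 ± 0.497 and 16.4 ± 0.830 FPKM (SD, n = 3 each) and a log2 fold change of 0.29 ± 0.06 (SE, limma adjusted p = 0.00298). Of all genes tested, 16.98% had a larger log2 fold change. The annotation places a second gene model, Gm49361, on the same strand, and 40.55% of the 75-base stretches of Lats2 transcripts occur in it, so reads may be split between them. Gm49361 was listed at 0 in 5 libraries and at 0.167 FPKM in 4H replicate 2. Lats1 (ENSMUSG00000040021, chr10:7681214-7716460, plus strand) stood at 23.9, 24.5 and 23.9 FPKM in CON and at 25.7, 25.4 and 23.8 FPKM in 4H. The 4H values surrounded the CON values, and the log2 fold change was 0.05 (95% confidence interval -0.05 to 0.15, limma adjusted p = 0.395).

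Lats1 RNA was above Lats2 RNA in every library. The share of Lats2 in the sum of both was 34.7%, 35.4% and 36.4% in the CON libraries and 39.6%, 40.02% and 39.4% in the 4H libraries, 4.14 percentage points higher with no overlap (exact permutation p = 0.1). The sum was 37.4 ± 0.693 FPKM in CON and 41.4 ± 1.84 FPKM in 4H (SD, n = 3 each; exact permutation p = 0.1).

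Stk3 (ENSMUSG00000022329, chr15:34875496-35178921, minus strand), which encodes the kinase MST2 at the head of the cascade, stood at 16.4, 17.7 and 15.3 FPKM in CON and at 20.9, 18.3 and 18.5 FPKM in 4H. The groups did not overlap, but CON replicate 2 lay close to the 4H libraries. The means were 16.5 ± 1.19 and 19.2 ± 1.45 FPKM (SD, n = 3 each), a 1.17-fold rise with a log2 fold change of 0.21 ± 0.07 (SE, limma adjusted p = 0.0380). This call was the least firm of the 6, since it was lost when any of CON replicate 1 (adjusted p = 0.0888), CON replicate 3 (0.122), 4H replicate 1 (0.111) and 4H replicate 3 (0.0536) was left out, without a filter on low values (0.0649) and without the trend in limma (0.0626). Its paralog Stk4 had 11.2 ± 0.131 FPKM in CON and 11.9 ± 0.0435 FPKM in 4H (SD, n = 3 each; limma adjusted p = 0.182). The share of Stk3 in the sum of Stk3 and Stk4 was 59.5% ± 1.502 in CON and 61.7% ± 1.78 in 4H (SD, n = 3 each), and the groups overlapped (exact permutation p = 0.3).

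Nf2 (ENSMUSG00000009073, chr11:4765845-4849536, minus strand) encodes merlin, a tumour suppressor that links membrane proteins to the cytoskeleton and brings LATS kinases to the membrane. It stood at 31.1, 29.4 and 30.1 FPKM in the CON libraries and at 27.3, 27.4 and 26.7 FPKM after stretch. All 4H values were lower, with means of 30.2 ± 0.855 and 27.1 ± 0.391 FPKM (SD, n = 3 each). The fall was small, with a log2 fold change of -0.15 ± 0.04 (SE, limma adjusted p = 0.0116), and it passed the threshold under all 16 alternatives.

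**Figure D3:**
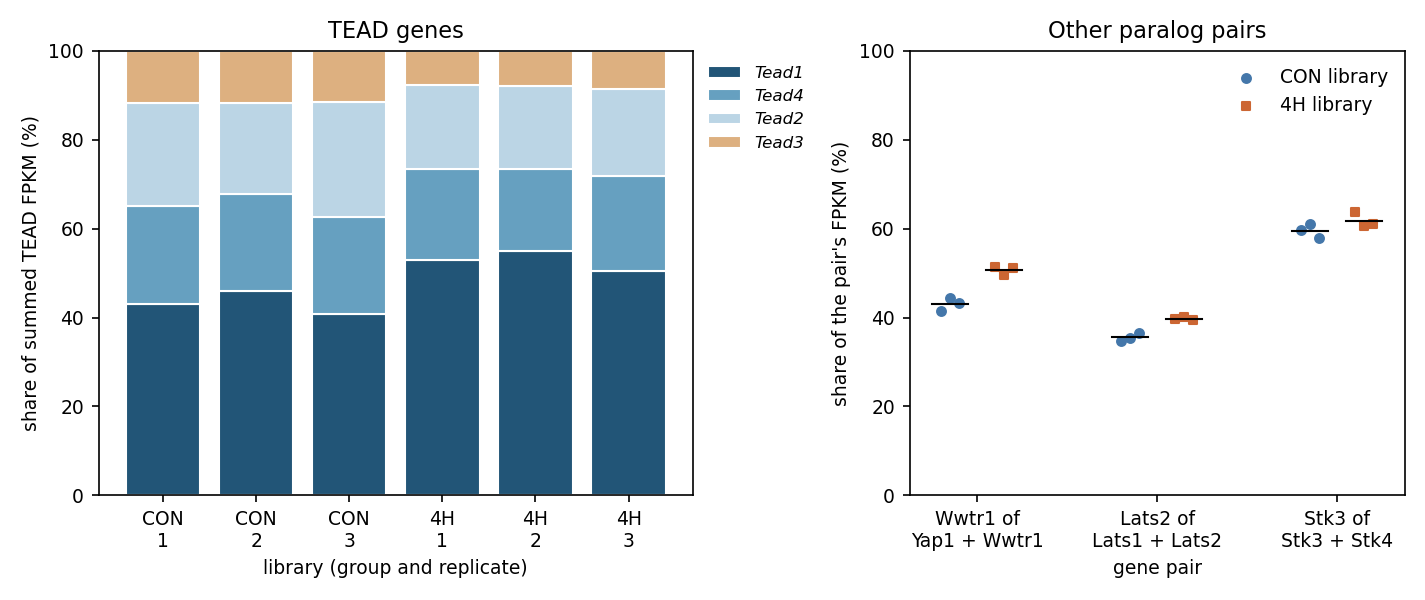
Shares of summed FPKM in percent (vertical axes, 0 to 100), on the left for the 4 TEAD genes as stacked bars by library, and on the right for Wwtr1, Lats2 and Stk3 within their pairs, with 1 point per library and 3 libraries per group. Tead1 takes 40.9% to 45.9% in the CON libraries and 50.4% to 54.9% in the 4H libraries, and of the pairs only Stk3 of Stk3 and Stk4 shows overlapping groups.

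The order of the 10 genes by level changed with stretch. In the CON group Yap1 was highest, followed by Nf2, then by Wwtr1, Lats1 and Tead1, whose neighbours' library ranges overlapped, then by Stk3, then by Lats2, Tead2 and Tead4, which also overlapped, and Tead3 was lowest. In the 4H group Wwtr1, Tead1 and Yap1 were highest and overlapped, followed by Nf2, Lats1, Stk3 and Lats2, which were apart from their neighbours, then by Tead4 and Tead2, which overlapped, with Tead3 again lowest. The spread between libraries was smallest for Yap1 in the CON group (coefficient of variation 1.06%) and reached 8.49% for Tead4 in the 4H group and 9.28% for Tead2 in the CON group.

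For Yap1, Wwtr1 and Tead1 the genes with the most similar pattern over the 6 libraries were found by the Euclidean distance between centred log2(FPKM + 0.5) values. Nearest to Yap1 were Gpat4, an enzyme of glycerolipid synthesis, the ubiquitin-conjugating enzyme Ube2d2a and the kinase Tesk1, at distances of 0.0230, 0.0242 and 0.0337. Nearest to Wwtr1 were Nhs, Rufy1 and the lysophosphatidic acid receptor Lpar1, at distances of 0.0440, 0.0446 and 0.0520. Lpar1 had 15.2 FPKM in CON and 21.2 FPKM in 4H, a log2 fold change of 0.47. Nearest to Tead1 were the signalling adaptor Traf5, Ttc9 and the nucleotide receptor P2ry2, at distances of 0.0776, 0.0902 and 0.127. These likenesses rest on 6 libraries in 2 groups and are given as a description.

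Of 92 other genes of the pathway, 79 could be tested, and 37 rose and 9 fell, where 22.6% of all genes tested were called higher and 24.1% lower. The number that fell was 14 with the GC content and length trend of each library removed. In the lists other than the YAP and TAZ target signature, which hold 73 genes with Amotl2 and Ptpn14 that stand in both, 61 were tested, 23 rose and 7 fell, with a median log2 fold change of 0.09, and 0 passed a log2 fold change of at least 1. The called genes among these 61 came to 49.2%, close to the 46.7% of all genes tested. All 5 other pathway genes past that threshold, 4 higher and 1 lower, belonged to the target list. The median over the 79 tested genes was 0.12, and 58.2% of them were called, against 46.7% of all genes tested. Exons of Mink1, Map4k5, Ccn2 and Gadd45a overlap a gene on the opposite strand, so their values are less certain.

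Among the 6 core kinase partners, of which 33.3% were called against 46.7% of all genes tested, 1 rose, 1 fell and 4, Stk4, Sav1, Stk38 and Stk38l, did not pass the test, with a median log2 fold change of 0.08. The genes that passed encode the paralogous MOB1 proteins, the coactivators of the LATS kinases, and they moved in opposite directions. Mob1a stood at 98.1 ± 1.45 FPKM in CON and 75.6 ± 0.425 FPKM in 4H (SD, n = 3 each; log2 fold change -0.37, limma adjusted p = 1.78e-05). Mob1b stood at 13.6 ± 1.11 FPKM in CON and 17.9 ± 0.963 FPKM in 4H (SD, n = 3 each; log2 fold change 0.39, limma adjusted p = 0.00226).

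Of 10 upstream kinases that can act on LATS or MST proteins, 8 were tested, 5 rose and 1 fell (75.0% called, against 46.7% of all genes tested), with a median log2 fold change of 0.19. Mink1 and Map4k5, kinases of the MAP4K family that phosphorylate LATS beside MST1 and MST2, had log2 fold changes of 0.53 and 0.52 (limma adjusted p = 5.45e-06 and 3.62e-05). Taok3, a kinase of the family that activates MST kinases, was the 1 that fell, from 10.6 to 9.18 FPKM (log2 fold change -0.21, limma adjusted p = 0.0285). Its call was lost after rescaling to TPM (adjusted p = 0.0604) and on leaving out replicate 1 or 3 of CON (0.0758 and 0.0896) or replicate 1 or 2 of 4H (0.0648 and 0.0886).

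Of 24 scaffold and junction genes upstream of the kinases, 18 were tested, 10 rose and 2 fell (66.7% called, against 46.7% of all genes tested), with a median log2 fold change of 0.24. Frmd6, a FERM-domain protein that acts with merlin, stood at 27.5 ± 0.797 FPKM in CON and 49.2 ± 0.483 FPKM in 4H (SD, n = 3 each), and its log2 fold change of 0.83 (limma adjusted p = 1.05e-06) was opposite in sign to that of Nf2. Of its transcript, 9.21% of the 75-base stretches recur in another gene. The polarity gene Pard3 fell from 12.4 to 9.05 FPKM (log2 fold change -0.44, limma adjusted p = 0.00258). Amot, an angiomotin that binds YAP, fell from 6.03 to 4.74 FPKM (log2 fold change -0.32, limma adjusted p = 0.0221), a call that was lost without CON replicate 2, CON replicate 3 or 4H replicate 2 (adjusted p = 0.0593, 0.0778 and 0.0633).

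Of 18 inhibitors of the core kinases, 16 were tested and 12 did not pass, 3 rose and 1 fell (4 of the 16 called, against 46.7% of all genes tested), with a median log2 fold change of 0.02. Slmap and Strn3, subunits of the phosphatase complex that inactivates MST kinases, had log2 fold changes of 0.19 and 0.23 (limma adjusted p = 0.00420 and 0.00430). Ppp2r1a, the scaffold subunit of that phosphatase, fell from 111.4 to 102.2 FPKM (log2 fold change -0.12, limma adjusted p = 0.00968), and the log2 fold change was -0.08 with quantile normalization, which ended the call (adjusted p = 0.0799).

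Of the VGLL cofactors, which compete with YAP and TAZ for TEAD factors, 3 of 4 were tested. Of these, 1 rose, 1 fell and 1 did not pass the test (66.7% called, against 46.7% of all genes tested). Vgll4, a repressor of TEAD activity, rose from 8.88 to 11.7 FPKM (log2 fold change 0.37, limma adjusted p = 0.00432). Vgll3 had 16.5 ± 2.57 FPKM in CON and 13.2 ± 1.25 FPKM in 4H (SD, n = 3 each; log2 fold change -0.31, limma adjusted p = 0.0497). That call sat at the threshold, and without CON replicate 1 the log2 fold change was -0.19 (adjusted p = 0.125). It was also lost without CON replicate 3, 4H replicate 2 or 4H replicate 3 (adjusted p = 0.0775, 0.0982 and 0.147), without a filter, without the trend and after rescaling to TPM (adjusted p = 0.0944, 0.0834 and 0.0799).

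Of 11 genes for YWHA adaptors and for degradation of YAP, 10 were tested, 3 rose and 1 fell (40.0% called, near the 46.7% of all genes tested), with a median log2 fold change of 0.07. Ywhah and Ywhaz had log2 fold changes of 0.40 and 0.30 (limma adjusted p = 2.34e-05 and 0.000315), and 5.54% and 13.76% of their 75-base stretches recur in other genes. Ywhag fell from 156.9 to 117.4 FPKM (log2 fold change -0.42, limma adjusted p = 5.46e-06).

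The YAP and TAZ target signature holds 21 genes beside Lats2, of which 20 were tested, 14 rose, 2 fell and 4 did not pass the test (80.0% called, against 46.7% of all genes tested), with a median log2 fold change of 0.40. The genes of the list that rose included Ccn2, at 7.18 ± 0.709 FPKM in CON and 48.1 ± 2.77 FPKM in 4H (SD, n = 3 each; log2 fold change 2.66, limma adjusted p = 1.22e-07), and Ccn1, at 59.6 ± 4.93 and 165.7 ± 5.61 FPKM (log2 fold change 1.47, limma adjusted p = 6.90e-07), both secreted matricellular proteins. The muscle repeat protein gene Ankrd1 (log2 fold change 1.30, limma adjusted p = 1.16e-06) and Igfbp3 (1.34, adjusted p = 0.000293), which binds insulin-like growth factors, also rose. Igfbp3 was low, at 0.574 FPKM in CON and 2.26 FPKM in 4H, and its log2 fold change ran from 1.04 to 1.78 over the alternatives. In the other direction Gadd45a, a growth arrest and DNA damage gene, fell from 77.3 to 16.2 FPKM (log2 fold change -2.23, limma adjusted p = 7.94e-07), and Ccdc80 fell from 10.2 to 7.54 FPKM (log2 fold change -0.41, limma adjusted p = 0.00287). Many of these genes have other inducers, and the list was not tested against other genes.

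**Figure D4:**
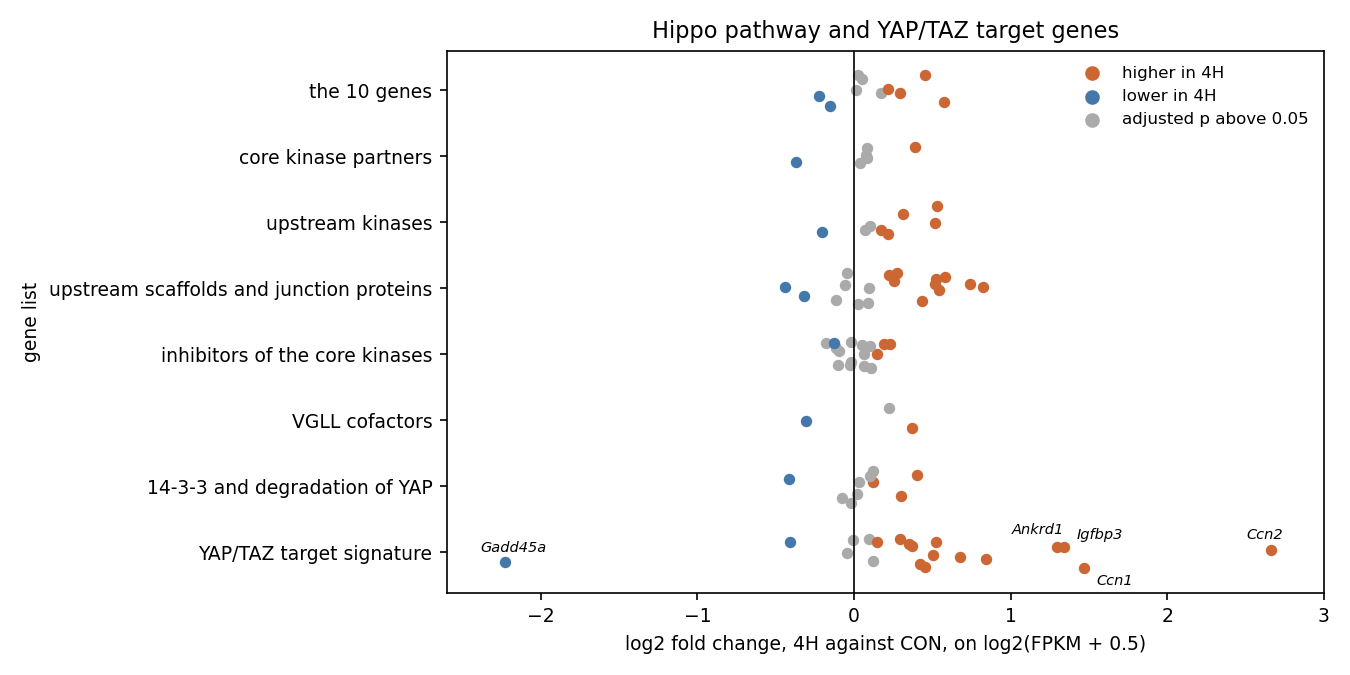
Log2 fold change, 4H against CON, on log2(FPKM + 0.5) (horizontal axis) of the 10 genes and of the tested genes of each pathway list (vertical axis), 1 point per gene, coloured by direction where the limma adjusted p was at most 0.05. The 10 genes lie between -0.22 and 0.58, while the target signature reaches 2.66 for Ccn2 and -2.23 for Gadd45a.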

How the data were processed

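RNA of C2C12 myoblasts was sequenced by the study as 150-base paired reads from strand-marked libraries of poly(A) RNA, with 3 libraries in the CON group and 3 in the 4H group (the labels title the latter 4H1, 4H3 and 4H4, called replicates 1, 2 and 3 here by their numbers in the labels). The authors deposited 1 table of FPKM values with 1 column per library, all of which were used. The submitters' processing notes name the build mm10. The aligner, counting tool, annotation and use of strand in counting were not given in the sources used here.

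The study's methods name a count model, which FPKM values do not allow. The values were therefore taken as log2(FPKM + 0.5) and fitted with limma 3.58.1 (R 4.3.3, functions lmFit and eBayes, trend on), two-sided, where a row averaged 0.5 FPKM or more in the 6 libraries. Fold changes on this scale understate the change of low genes. P-values were adjusted by Benjamini-Hochberg over all 11593 rows tested, and a gene was called at an adjusted p of at most 0.05. The methods' second threshold, a log2 fold change of 1 or more in either direction, was given beside it. Shares and sums were compared with two-sided exact permutation tests over libraries. FPKM gives no absolute depth, counting error is therefore left out, and precision rests on 3 libraries a group.

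The members and lists were chosen with earlier results of these data known. The text names all 10 members, every other pathway gene past both thresholds, in each list the 2 called genes with the smallest adjusted p in each direction, the 3 nearest patterns of Yap1, Wwtr1 and the member that changed most, and marker genes. Cd37, Gm49361, Stk4, Sav1, Stk38 and Stk38l are not chosen by it and are named with their values already known, and Gm20416 is named for its position. A gene of the scaffold list that the rule picks is not reported here. Amotl2 and Ptpn14 stand in both the scaffold list and the target signature.

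Gene positions, transcript sequence and overlaps came from GENCODE M21, on the same assembly as mm10, and promoters from RefSeq. Shared sequence is the share of 75-base stretches of a gene's transcripts that occur in another gene's. The step with limma was tested on simulated data. Alternatives were pseudocounts of 0.1 and 1, no filter and a filter at 1 FPKM, quantile normalization, median-of-ratios scaling, rescaling to TPM, no trend, a replicate block and each library left out. An alternative without the GC content and length trend of each library was added after the data were seen. Python 3.11.15 with numpy 2.4.6, pandas 2.3.3, matplotlib 3.10.9 and SciPy 1.17.1 made the tables and plots.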

Additional observations from a re-analysis of the deposited data

How the results depend on the processing

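Under 16 alternatives Wwtr1, Tead1, Lats2 and Nf2 kept their direction and their call, with log2 fold changes of 0.41 to 0.49, 0.51 to 0.65, 0.25 to 0.34 and -0.20 to -0.12. Stk3 kept its direction and lost its call in 7 alternatives, and Tead3 in 4. Over all 16 the limma adjusted p ran from 0.0194 to 0.122 for Stk3 and from 0.00738 to 0.0641 for Tead3. Tead4 gained a call in 2 (limma adjusted p = 0.0208 and 0.0432), and its adjusted p reached 0.208 over all 16. The number of the 10 genes called lower, 2, was 1 to 2 with a library left out. The number of other pathway genes called lower, 9, was 14 once the GC content and length trend was taken out. Yap1 and Tead2, which were not called, changed sign in some fits. With that trend taken out the log2 fold change was -0.018 for Yap1 and -0.012 for Tead2, and with a library left out that of Tead2 ran from -0.042 (without CON replicate 2) to 0.087 (without CON replicate 3) and was -0.0054 without 4H replicate 1. The cause was not tested. Over all genes, the number past both thresholds was 450, 347 with a pseudocount of 1 and 703 after rescaling to TPM.

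The replicate numbers used here showed no pairing of the libraries, as deviations from the group means correlated at 0.025, -0.093 and -0.126 for the 3 equal numbers. By the numbers in the library titles, 2 pairs share one, at 0.025 and 0.176, the latter the highest of all pairs. The replicate block did not use the title numbers, so a pairing by title was not tested. With a replicate block, 4964 of 11593 genes were called in place of 5409, and 1 of the 10 genes was called lower, since the adjusted p of Tead3 was 0.0522. That of Stk3 was 0.0501. Each library in a group of 3 weighs heavily, and without depth small changes such as those of Lats1 and Tead4 cannot be set against counting error.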
